A study of Mus musculus with 6 samples.

Results

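Ribosomal protein pseudogene copies are the genes whose symbol consists of a ribosomal protein gene symbol followed by -ps and, in most cases, a number, such as *Rps12-ps17*. Of the 45777 genes in the table of counts, 224 carry such a symbol, and they belong to 57 parent symbols, of which 56 are genes of the table. The copies were chosen by name alone and the parent gene of a copy is the symbol before -ps. RefSeq types 214 of them as pseudogenes, 8 as transcribed pseudogenes and 2, *Rpl34-ps1* and *Rpl31-ps12*, as protein coding.

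A processed pseudogene arises when a spliced mRNA is reverse transcribed and inserted elsewhere in the genome, so that it starts without the introns and usually without the promoter of its parent. Ribosomal protein genes, which encode the proteins of the large (Rpl) and small (Rps) subunits of the cytosolic ribosome, are among the genes with most such copies in mammals, because their mRNAs are short and abundant. A read that comes from a ribosomal protein mRNA can match a copy as well as its parent, which makes the counts of a copy uncertain wherever the sequences do not differ within a read.

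The counts come from livers of male C57BL/6 mice that were 8 weeks old and had been fasted for 24 h, with 1 library per mouse. The 3 WT mice carry floxed *Pak4* alleles on both chromosomes (*Pak4* flox/flox) without Cre, and the 3 LKO mice carry the same alleles with Alb-Cre, a transgene in which the albumin promoter drives Cre recombinase in hepatocytes. Other cell types of the liver keep *Pak4* in LKO mice, and both genotypes carry the floxed alleles. *Pak4*, which encodes a serine/threonine kinase, lies on chromosome 7 from 28558819 to 28598184 and had 268, 210 and 271 counts in WT and 85, 52 and 149 in LKO mice. On the log2 scale the LKO to WT difference came to −0.71 (SE 0.31, edgeR adjusted p = 0.101) and did not pass the test. The unscaled counts of the genotypes did not overlap, but values of single mice did after the scaling described below. *Pak4* thus followed the labels in every library in unscaled counts, but only in the mean after that scaling. With total counts in place of that scaling its log2 fold change was −1.54, where the median of all genes was −0.90.

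Total counts were 45934632 to 59576437 per mouse. The factors of TMM, the scaling behind the CPM values (counts scaled to a common library size) given here, were 1.28 to 1.43 in WT and 0.639 to 0.816 in LKO mice, without overlap, and 7SL and 7SK RNA took 5.05% to 5.84% (WT) and 13.8% to 18.2% (LKO) of the counts. Of 8 hepatocyte markers 7 were measured, with a summed level of 40571 to 44143 CPM in WT and 104127 to 127755 CPM in LKO mice. Summed markers of Kupffer, endothelial, stellate and erythroid cells and of neutrophils had LKO values that all lay above the WT values (214.9 to 337 against 390 to 774, 211 to 252 against 362 to 389, 215 to 251 against 547 to 811, 192 to 324 against 879 to 1634 and 0.885 to 6.04 against 13.1 to 27.7 CPM). Those of cholangiocytes and of T or NK cells were lower (32.9 to 50.1 against 13.4 to 29.9 and 1.66 to 3.99 against 0.364 to 0.459 CPM), and those of B or plasma cells overlapped (17.7 to 26.6 and 17.4 to 25.1 CPM). The cholangiocyte sum rests mostly on *Spp1* (mean 39.6 CPM in WT and 18.7 in LKO mice). *Krt19*, *Sox9* and *Epcam* had log2 fold changes of 1.00, 0.11 and 0.05. In the hepatocyte sum *Alb* had the highest level (mean 21079 CPM in WT and 69388 in LKO mice), while *Ttr* fell by 1.35 on the log2 scale. *Dcn* had the highest level in the stellate sum (mean 116 CPM in WT and 505 in LKO mice). In the erythroid sum that was *Hbb-bs* (120 and 897 CPM), while *Alas2* fell by 1.37 on the log2 scale. The Kupffer marker *Cd68* fell by 1.29. Of the markers tested, 4 of 7 were higher and 1 lower (edgeR) for hepatocytes, 0 of 4 and 1 for cholangiocytes, 3 of 6 and 1 for Kupffer cells, 3 of 5 and 0 for endothelial cells, 2 of 6 and 0 for stellate cells, 0 of 3 and 2 for T or NK cells, 0 of 4 and 0 for B or plasma cells, 3 of 3 and 0 for neutrophils, and 2 of 5 and 1 for erythroid cells, where 19.6% of all genes tested were higher and 20.5% lower. Apart from *Tf*, which was not matched by its symbol, each marker had counts in at least 1 mouse. In such bulk samples, fewer cells of a type and less RNA per cell cannot be told apart, and the part of these shifts in the results was not tested.

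The sequences show how far a read can tell a copy from its parent. A set of 6 parents is shown, chosen because the results turn on their copies. Each stretch lies in the coding part of the parent mRNA, numbered from the A of the start codon, and, except for *Rpl39*, is the 100-base stretch with the most differences to the first copy listed. Capitals mark bases that differ between parent and copy. All sequences come from GENCODE transcripts of GRCm38, which is also called mm10. *Rpl15-ps3* has no protein-coding gene around it and is identical over the 615 bases of its GENCODE transcript to the mRNA of *Rpl15* (chromosome 14, 18267823 to 18270986), which encodes a protein of the large subunit. Bases 1 to 100 of the coding part are given for both, with the copy at chr9:22186122-22186221 on the minus strand.
Rpl15: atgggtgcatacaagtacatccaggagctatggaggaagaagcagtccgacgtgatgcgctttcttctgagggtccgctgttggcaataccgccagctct
Rpl15-ps3: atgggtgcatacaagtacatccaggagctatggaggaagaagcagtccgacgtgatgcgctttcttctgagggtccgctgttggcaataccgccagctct

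The parent with most copies is *Rps12* (chromosome 10, 23785183 to 23787383), which encodes a small subunit protein and has 20 copies. Of these, 13 lie on the X chromosome. A pair of X-linked copies shares 4 differing bases between bases 1 and 100, *Rps12-ps11* (chrX:124470258-124470357, minus strand) and *Rps12-ps17* (chrX:125548072-125548171, minus strand), which has 5, both outside protein-coding genes. *Rps12-ps3* (chr19:59322371-59322470, plus strand), in an intron of *Pdzd8* on the opposite strand, does not differ from *Rps12*.
Rps12: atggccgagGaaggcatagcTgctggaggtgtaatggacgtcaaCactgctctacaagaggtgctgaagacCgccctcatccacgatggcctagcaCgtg
Rps12-ps11: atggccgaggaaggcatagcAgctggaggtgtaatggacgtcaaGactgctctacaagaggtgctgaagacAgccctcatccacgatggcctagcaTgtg
Rps12-ps17: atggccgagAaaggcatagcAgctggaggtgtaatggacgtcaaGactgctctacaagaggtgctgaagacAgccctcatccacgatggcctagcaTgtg
Rps12-ps3: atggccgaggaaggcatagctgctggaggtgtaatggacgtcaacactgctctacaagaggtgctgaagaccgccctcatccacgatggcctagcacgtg

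A pair of copies with large rises differ from their parents by 1 base each. *Rpl39* (chromosome X, 37082518 to 37085222) encodes a small protein of the peptide exit tunnel, and *Rpl39-ps*, which lies in no protein-coding gene, is shown over bases 1 to 150 (chr15:102635039-102635188, plus strand). *Rps27a* (chromosome 11, 29545842 to 29548040) encodes a small subunit protein fused to ubiquitin, and *Rps27a-ps2* is shown over bases 276 to 375 (chr9:83409935-83410034, plus strand), which lie in an intron of *Lca5* on the opposite strand.
Rpl39: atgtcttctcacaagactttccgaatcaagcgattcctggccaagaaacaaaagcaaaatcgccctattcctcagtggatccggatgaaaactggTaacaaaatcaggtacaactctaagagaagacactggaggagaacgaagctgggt
Rpl39-ps: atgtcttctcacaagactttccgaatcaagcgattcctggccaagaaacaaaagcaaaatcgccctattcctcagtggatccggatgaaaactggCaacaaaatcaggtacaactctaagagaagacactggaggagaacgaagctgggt
Rps27a: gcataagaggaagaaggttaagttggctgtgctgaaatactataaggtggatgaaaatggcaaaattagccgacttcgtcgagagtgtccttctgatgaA
Rps27a-ps2: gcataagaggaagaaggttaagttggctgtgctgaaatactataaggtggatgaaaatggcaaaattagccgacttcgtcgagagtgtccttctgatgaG

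The last 2 parents have copies that were lower relative to them in LKO mice and that lie in introns on the strand of the host gene. *Rpl36* (chromosome 17, 56610094 to 56614246) and *Rpl23a* (chromosome 11, 78180935 to 78183584) encode large subunit proteins, the latter at the exit of the peptide tunnel. *Rpl36-ps12* (chr6:108140383-108140482, minus strand) lies in an intron of *Sumf1* and is shown over bases 1 to 100. *Rpl23a-ps2* (chr11:70879608-70879707, plus strand) lies in an intron of *Rabep1*, is shown over bases 177 to 276, and has 19 differing bases over 468 aligned bases.
Rpl36: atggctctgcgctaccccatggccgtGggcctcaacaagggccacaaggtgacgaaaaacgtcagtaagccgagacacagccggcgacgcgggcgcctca
Rpl36-ps12: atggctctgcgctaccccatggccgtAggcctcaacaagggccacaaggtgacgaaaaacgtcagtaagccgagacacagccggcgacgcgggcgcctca
Rpl23a: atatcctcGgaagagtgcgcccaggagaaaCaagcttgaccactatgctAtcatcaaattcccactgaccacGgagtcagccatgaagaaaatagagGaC
Rpl23a-ps2: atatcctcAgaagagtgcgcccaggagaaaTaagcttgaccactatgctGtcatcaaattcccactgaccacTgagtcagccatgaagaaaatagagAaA

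Most copies gave few counts or none. Of the 224 copies, 54 had no count in any mouse, 35 had counts but zeros in more than 1 mouse, and 135 had at most 1 zero among the 6 mice and were tested. A count of 0 allows for up to 3 counts. Set against total counts without the TMM factors, these are 0.0504 to 0.0653 CPM in these libraries. This limit is therefore not on the TMM scale of the other CPM values. On that scale it is lower in WT and higher in LKO mice. A mean of at least 10 counts was reached by 88 copies, of at least 100 counts by 26 and of at least 1000 counts by *Rpl15-ps3* alone. The tested copies belong to 48 parents.
Tested and untested copies differed in their likeness to the parent. A sequence could be compared for 213 copies. Over the aligned part, the median identity to the parent mRNA was 98.9% in 130 tested copies and 92.8% in 83 copies that were not tested. The copies were also compared in windows of 100 bases, the length of a read. Of the untested copies 75 (90.4%) had no window that occurs unchanged in the parent mRNA, against 18 tested copies (13.8%). Median lengths were close, at 461 and 466 bases. In TPM, a level that is corrected for transcript length, a tested copy had a median of 0.297% of the level of its parent. More than 10% was seen in *Rpl10a-ps1* and in *Rpl15-ps3*, the highest with 44.4%.

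The copies together made up a small part of the libraries, and the direction of its difference between the genotypes depended on what it was set against. Their summed counts were 11128, 9624 and 9533 in WT and 11915, 12098 and 12298 in LKO mice. Their share of all counts was 0.0202%, 0.0210% and 0.0185% in WT and 0.0221%, 0.0221% and 0.0206% in LKO mice, so that the lowest LKO value lay within the WT range (exact permutation test, two-sided, p = 0.2, where 3 mice against 3 allow no p below 0.1). The Wilson 95% intervals of single mice, which cover counting error only, reached from 0.0181% to 0.0225%. With 7SL and 7SK RNA left out of the total, the share was 0.0214%, 0.0221% and 0.0195% in WT and 0.0270%, 0.0270% and 0.0239% in LKO mice, all above the WT range (exact permutation test, two-sided, p = 0.1). With TPM in place of counts, the share of the copies was lower in LKO mice (0.0315% ± 0.00118) than in WT mice (0.0426% ± 0.00324), by an exact permutation test at p = 0.1 (two-sided, SD over 3 mice).
Set against their parents, the copies took a smaller part in LKO mice. The share of all counts on the 56 parents was 0.902% ± 0.0384 (WT) against 1.21% ± 0.0616 (LKO; SD, n = 3), with p = 0.1 in the exact permutation test. Summed copies came to 2.14%, 2.32% and 2.14% of summed parents in WT and 1.84%, 1.73% and 1.78% in LKO mice, without overlap (exact permutation test, two-sided, p = 0.1). The 12 copies with the highest mean CPM held 59.8% ± 1.16 (WT) and 59.3% ± 1.86 (LKO; SD, n = 3) of the copy counts. The 9 parents of these 12 copies held 24.4% to 25.5% of the parent counts in WT but 16.7% to 17.7% in LKO mice. With each copy held at its mean WT ratio to its own parent, the parent counts of the LKO mice alone gave 1.65% ± 0.0345 (SD, n = 3), below the measured 1.78% ± 0.0543.

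**Figure D1:**
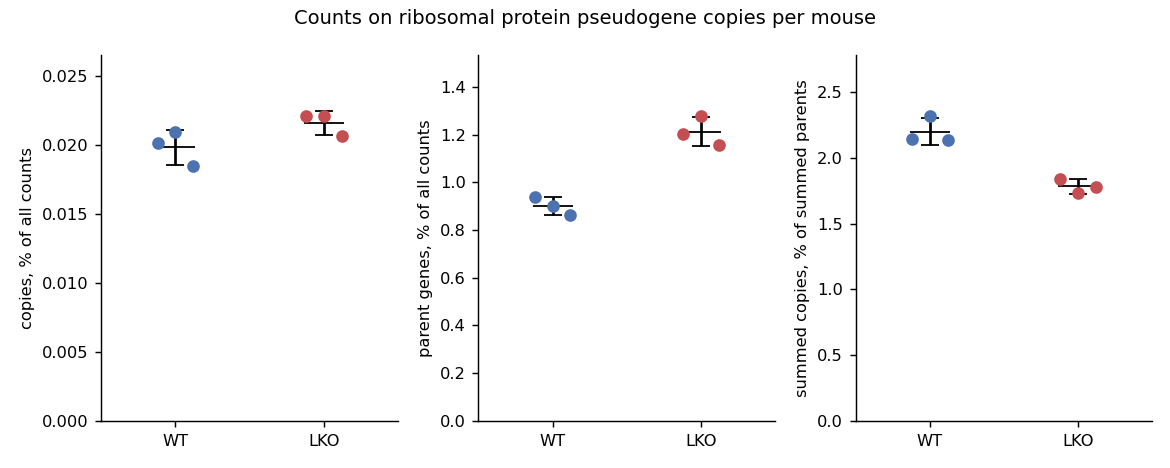
Summed counts per mouse of the 224 copies as percent of all counts (left), of the 56 parent genes as percent of all counts (middle) and of the copies as percent of the parents (right). Points are mice, the wide line is the mean and the error bar the SD (n = 3); the genotypes overlap on the left and not in the middle or on the right, where LKO mice are lower.

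Single copies were mostly higher in LKO mice after TMM scaling. Of the 135 copies tested, 66 (48.9%) were higher and 0 lower in LKO mice at an adjusted p under 0.05 in edgeR's quasi-likelihood test, where 19.6% of all 18636 genes tested were called higher and 20.5% lower. At an unadjusted p under 0.05, 1 copy was lower. The other tools gave 67 higher and 0 lower (edgeR's exactTest) and 59 higher and 0 lower (DESeq2). Of all genes, exactTest called 20.8% higher and 22.3% lower, and DESeq2 20.9% and 21.2%. The median log2 fold change was 1.04 over the tested copies and −0.04 over all genes tested, and 60 of the 66 copies at least doubled. In 86 copies every LKO mouse was above every WT mouse in CPM and in 4 below, where 26.1% and 27.9% of all genes did so. These 4 were *Rpl36-ps12*, *Rpl7a-ps7*, *Rps2-ps13* and *Rps2-ps8*, named after their values were seen. Since copies share reads with each other and with their parents, the calls are not independent.
How many copies are called depends on the scaling. With total counts in place of TMM, 26 copies were higher and 12 lower, beside 6.26% and 51.4% of all genes. A correction for gene length gave 33 higher and 5 lower, beside 19.7% and 19.2%, and limma on log2(TPM + 1) gave 13 higher and 46 lower, beside 2.43% and 71.5%. The median of all genes moved to −0.90 with total counts, −0.02 with the length correction and −0.79 with TPM. Relative to it, the median of the copies lay higher by 1.08 with TMM, 1.14 with total counts, 0.59 with the length correction and 0.70 with TPM on the log2 scale.

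Most parents were higher in LKO mice too after TMM scaling. With total counts 26 of the 56 parents were higher and 17 lower, and with limma on log2(TPM + 1) 15 were higher and 29 lower. With TMM, 39 were higher and 2, *Rpl14* and *Rpl28*, were lower in LKO mice (edgeR), beside 19.6% and 20.5% of all genes. The median log2 fold change of the parents with TMM was 1.02. Among 90 tested copies of parents called higher, 62 (68.9%) were called higher too. Among 42 copies of parents that were not called, 4 were, and these were *Rpl10-ps1*, *Rpl10-ps3*, *Rpl10-ps5* and *Rpl10-ps6*. None of the 3 tested copies of *Rpl14* and *Rpl28* was called. Across the 135 pairs, the log2 fold changes of copy and parent had Pearson's r = 0.731 and Spearman's rho = 0.728, where the points share libraries and, in part, reads.

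**Figure D2:**
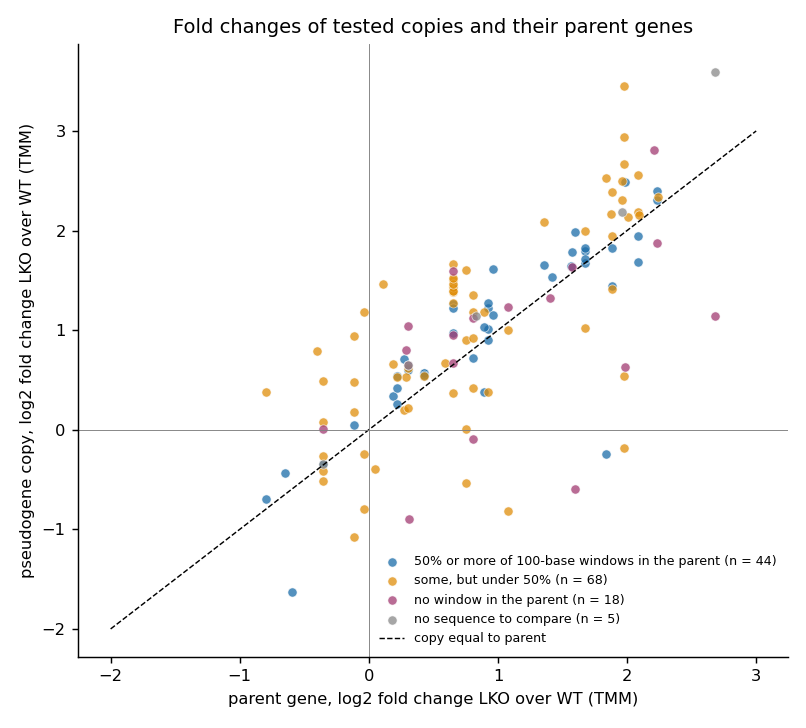
Log2 fold change of LKO over WT (TMM) of each of the 135 tested copies against that of its parent gene, 1 point per copy, coloured by the share of the copy's 100-base windows that occur unchanged in the parent mRNA. Points above the dashed line of equal change are copies with a higher log2 fold change than their parent, and *Rpl23a-ps2*, *Rps15a-ps4* and *Rpl21-ps15* lie farthest below it.

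The 30 cytosolic ribosomal protein genes with no copy in the table were mostly higher too, with 20 higher and 0 lower of 27 tested and a median log2 fold change of 0.87. Over all 86 genes of this kind, 59 were higher and 2 lower of 83 tested. Of 16 translation factors and related genes with a 5′ terminal oligopyrimidine tract, a motif that ribosomal protein mRNAs carry, 7 were higher and 2 lower (median log2 fold change 0.34). Over all genes tested, 19.6% were higher and 20.5% lower. Among these 16 genes, *Eif3e* and *Eef2* are named after their values were seen: *Eif3e*, a subunit of initiation factor 3, had a log2 fold change of 2.37 (SE 0.18) and *Eef2*, the translocation factor, −0.69 (SE 0.17). Of 26 ribosome assembly genes, 4 were higher and 8 lower (median −0.19), to be read against the same shares over all genes. Also named after their values were seen, *Nop10*, a box H/ACA protein, had 1.58 (SE 0.18) and *Bysl*, a factor of small subunit maturation, −1.12 (SE 0.21). Of the 526 other rows named as pseudogene copies, 197 were tested, and 51 were higher and 20 lower, with a median log2 fold change of 0.32.

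Among the 12 copies with the highest mean CPM, *Rpl15-ps3* was first. It had 1149, 962 and 1047 counts in WT and 1764, 2214 and 1876 in LKO mice, each LKO mouse above each WT mouse. Its level was 15.3 ± 0.569 CPM (WT) and 48.0 ± 13.4 CPM (LKO; SD, n = 3), and it rose by a log2 fold change of 1.65 (SE 0.20, edgeR adjusted p = 6.2e-04), beside 1.57 for *Rpl15*. *Rpl15-ps3* had 159 counts per 1000 counts of *Rpl15* in WT and 169 in LKO mice, and this ratio did not pass the test (log2 difference 0.08, SE 0.05, limma adjusted p = 0.292). *Rpl10a-ps1*, which also contains no window that differs from its parent, had 761, 656 and 684 counts in WT and 1132, 1318 and 1159 in LKO mice. It rose by a log2 fold change of 1.53 (SE 0.19, edgeR adjusted p = 6.3e-04), and *Rpl10a*, a large subunit gene, by 1.42. In TPM the LKO and WT means of *Rpl15-ps3* were 45.0 ± 3.96 and 42.8 ± 1.16 (SD, n = 3), a difference within the spread.

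All 5 copies of *Rpl10*, whose protein joins the large subunit late in its assembly, were tested and had nearly the same fold change. *Rpl10-ps3* had 1054, 948 and 970 counts in WT and 790, 793 and 1034 in LKO mice, which overlap before scaling and do not overlap in CPM. The log2 fold changes were 0.54 to 0.57 in the 5 copies and 0.43 (SE 0.17, edgeR adjusted p = 0.0824) in *Rpl10*. Of the 5, *Rpl10-ps1*, *Rpl10-ps3*, *Rpl10-ps5* and *Rpl10-ps6* were called higher, with edgeR adjusted p from 0.0199 to 0.0457. With total counts the log2 fold changes of these 4 were −0.33 to −0.30 and that of *Rpl10* was −0.45, so that their direction depends on the scaling. *Rpl10-ps6* and *Rpl10-ps5* lie on the same strand in introns of *Ide*, which encodes insulin-degrading enzyme and rose by 0.59 (SE 0.13, edgeR adjusted p = 0.00896), and of *Nup93*, a nuclear pore gene that fell by 0.81 (SE 0.20, edgeR adjusted p = 0.0145). *Rpl10-ps6* and *Rpl10-ps5* had log2 fold changes of 0.55 and 0.57. With total counts both hosts were lower, at −0.27 for *Ide* and −1.66 for *Nup93*.

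Further copies with many counts, given here, had log2 fold changes from −0.51 in *Rps2-ps13* to 0.72 in *Rpsa-ps10*. *Rps23-ps1* and *Rps27a-ps2* follow below. *Rps2*, a small subunit gene, has 10 copies, of which 8 were tested and none was called. *Rps2-ps10* had 536, 436 and 413 counts in WT and 227, 235 and 183 in LKO mice. It had 23.9 counts per 1000 counts of *Rps2* in both genotypes (log2 difference 0.00, SE 0.08, limma adjusted p = 0.998). *Rps2-ps13*, with 395, 331 and 314 counts in WT and 156, 158 and 118 in LKO mice, and *Rps2-ps6*, with 289, 218 and 209 against 141, 118 and 96, had log2 fold changes of −0.51 and −0.26 beside −0.36 for *Rps2*. *Rpl19-ps11*, whose parent *Rpl19* contributes to a bridge between the subunits, had 595, 488 and 457 counts in WT and 455, 528 and 394 in LKO mice, with a log2 fold change of 0.60 (SE 0.23, edgeR adjusted p = 0.0647) beside 0.30 for *Rpl19*. *Rpl3-ps1*, a copy of the large subunit gene *Rpl3* on the X chromosome, had 396, 270 and 330 against 319, 235 and 199 counts and a log2 fold change of 0.34 (SE 0.24, edgeR adjusted p = 0.292). *Rpsa-ps10* had 263, 239 and 191 against 244, 232 and 206 counts, and its log2 fold change of 0.72 (SE 0.22, edgeR adjusted p = 0.0309) stood beside 0.80 (edgeR adjusted p = 0.0113) for *Rpsa*, the gene of a small subunit protein also known as a laminin receptor.

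**Figure D3:**
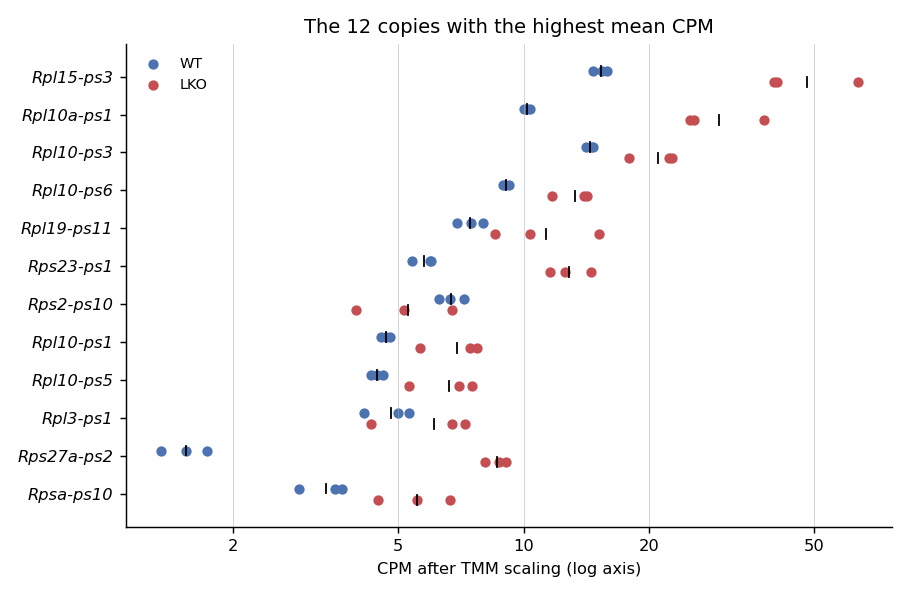
CPM after TMM scaling (log axis) of the 12 copies with the highest mean level, 1 point per mouse, with WT above LKO in each row and a black tick at each mean (n = 3). *Rpl15-ps3*, *Rpl10a-ps1*, *Rps23-ps1* and *Rps27a-ps2* show the widest gaps between the genotypes, and *Rps2-ps10* is the 1 copy with a lower LKO mean.

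The 8 largest rises among called copies with a mean of at least 1 CPM are given as a description, since that mean is taken over both genotypes and a copy that is low in WT can pass through its LKO level alone. The largest was that of *Rps27-ps2*, with 7, 10 and 15 counts in WT and 57, 102 and 72 in LKO mice (log2 fold change 3.59, SE 0.48, edgeR adjusted p = 9.1e-04). Its parent *Rps27*, which encodes a zinc finger protein of the small subunit, rose by 2.68 (SE 0.34), and *Wrap53*, in whose intron it lies, fell by 0.69 (SE 0.19, edgeR adjusted p = 0.0193). *Rpl39-ps* had 21, 24 and 20 counts in WT and 97, 109 and 65 in LKO mice (log2 fold change 2.81, SE 0.38), beside 2.21 for *Rpl39*. The 151 bases of *Rpl39-ps* in GENCODE hold no window of 100 bases that occurs unchanged in any other gene, since the 1 differing base shown above lies near their middle. RefSeq gives *Rpl39-ps* a longer extent, from 102634982 to 102635340 on chromosome 15, which was not compared. *Rps27a-ps2* had 100, 101 and 115 counts in WT and 356, 304 and 420 in LKO mice (log2 fold change 2.48, SE 0.20, edgeR adjusted p = 2.1e-04), beside 1.99 for *Rps27a* and −0.09 (SE 0.37) for its host *Lca5*.
The remaining 5 of these copies had fold changes close to those of their parents. *Rpl36a-ps1* and *Rpl36a-ps2* rose by 2.39 and 2.31, beside 2.23 for *Rpl36a*. *Ddah1*, which holds *Rpl36a-ps2* in an intron on the same strand and encodes a dimethylarginine hydrolase, fell by 1.41 (SE 0.25, edgeR adjusted p = 0.00276). *Rps18-ps5*, *Rpl7-ps7* and *Rpl23a-ps3* rose by 2.18, 2.13 and 1.99, beside 1.96 for *Rps18*, 2.01 for *Rpl7* and 1.60 for *Rpl23a*. Of the 66 copies called, 36 had a mean under 1 CPM. One of them was *Rps25-ps1*, named after its values were seen, with 6, 5 and 2 counts in WT and 26, 36 and 24 in LKO mice and a log2 fold change of 3.45, where *Rps25* had 1.97. In *Rps23-ps1*, which is identical to *Rps23* in every window, counts were 447, 353 and 393 in WT and 552, 505 and 534 in LKO mice, and its rise of 1.15 (SE 0.16, edgeR adjusted p = 0.00115) stood beside 0.96 for *Rps23*, whose protein lies at the decoding centre, and 1.99 (SE 0.96, edgeR adjusted p = 0.135) for *Gm5148*, whose exon it overlaps on the other strand.

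No copy met the rule for the largest falls, since 0 copies were called lower. The lowest log2 fold change was that of *Rpl14-ps1* at −1.63 (edgeR adjusted p = 0.196), which had 95 counts in WT mouse 3 and 6 to 12 in the other mice. In 3 tested copies a single mouse held more than 50% of the counts, *Rpl14-ps1*, *Rpl21-ps15* with 202 counts in WT mouse 1 and 15 to 48 in the others, and *Rplp0-ps1* with 31 in WT mouse 2 and 1 to 5 in the others. *Rpl28-ps1*, identical to *Rpl28* in every window, had 95, 124 and 96 counts in WT and 37, 22 and 63 in LKO mice and a log2 fold change of −0.69 (edgeR adjusted p = 0.157), beside −0.80 (SE 0.18, edgeR adjusted p = 0.00948) for its parent.

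The ratio of a copy to its parent within a mouse does not depend on the scaling of the library, and it was tested with limma over 260 pairs of pseudogene rows and parents, ribosomal or not. Of the 135 pairs of ribosomal protein copies, 12 were higher and 4 lower in LKO mice relative to the parent, where 8.85% and 3.08% of all 260 pairs were. The median log2 difference of the ratio was 0.16 over these pairs and 0.13 over the 125 other pairs, and 83 of the 135 lay within 0.5 of 0. It was above 0 in 100 of the 135 pairs and in 82 of the 125 other pairs, of which 79 lay within 0.5 of 0.

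Of the 12 copies that were higher relative to the parent, 10 were copies of *Rps12*. Of these, 8 lie on the X chromosome, where 11 of the 13 copies of *Rps12* were tested, between 123284984 and 125987385. *Rps12-ps17* had 84, 66 and 59 counts in WT and 116, 103 and 139 in LKO mice, which is 8.65, 8.62 and 8.40 counts per 1000 counts of *Rps12* in WT and 14.3, 15.8 and 16.4 in LKO mice. The genotypes did not overlap, and the log2 difference was 0.85 (SE 0.09, limma adjusted p = 9.8e-04). *Rps12-ps6*, *Rps12-ps18*, *Rps12-ps15* and *Rps12-ps13* had differences of 0.87, 0.81, 0.77 and 0.76 (limma adjusted p from 0.00227 to 0.0105). The log2 fold change of *Rps12* was 0.65 (SE 0.14, edgeR adjusted p = 0.00813).
These X-linked copies are not separate measurements. The 11 tested copies are 97.0% to 98.0% identical to *Rps12*, with at most 15.7% of their windows in its mRNA, while *Rps12-ps17*, *Rps12-ps18* and *Rps12-ps11* share every window with another gene. *Rps12-ps14* and *Rps12-ps16* had the same counts in all 6 mice, 28, 22 and 21 in WT and 38, 32 and 43 in LKO mice. Taken as 1 group, chosen after the values were seen, the 11 copies had 326, 251 and 243 counts in WT and 456, 392 and 504 in LKO mice. Per 1000 counts of *Rps12* they had 33.6, 32.8 and 34.6 in WT and 56.0, 60.1 and 59.6 in LKO mice, without overlap. Of the 7 autosomal copies tested, 2 were higher relative to *Rps12* by the test, *Rps12-ps3*, which does not differ from *Rps12* in any window (log2 difference 0.61, limma adjusted p = 0.00719), and *Rps12-ps9* (0.57, limma adjusted p = 0.0136). The other 5 were not called, with log2 differences from −0.29 in *Rps12-ps24* to 1.01 in *Rps12-ps5*.
The other 2 copies that were higher relative to their parents were *Rps23-ps2* and *Rps27a-ps2*. *Rps23-ps2*, with 110, 98 and 109 counts in WT and 190, 191 and 204 in LKO mice, had a log2 difference of 0.65 (limma adjusted p = 0.0049). It overlaps an exon of *C330021F23Rik* on the other strand, which fell by 2.78 on the log2 scale (SE 0.82, edgeR adjusted p = 0.0271). *Rps27a-ps2* had between 11.4 and 12.6 counts per 1000 counts of *Rps27a* in WT and 17.6, 15.1 and 18.6 in LKO mice, a log2 difference of 0.50 (SE 0.10, limma adjusted p = 0.0135).

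**Figure D4:**
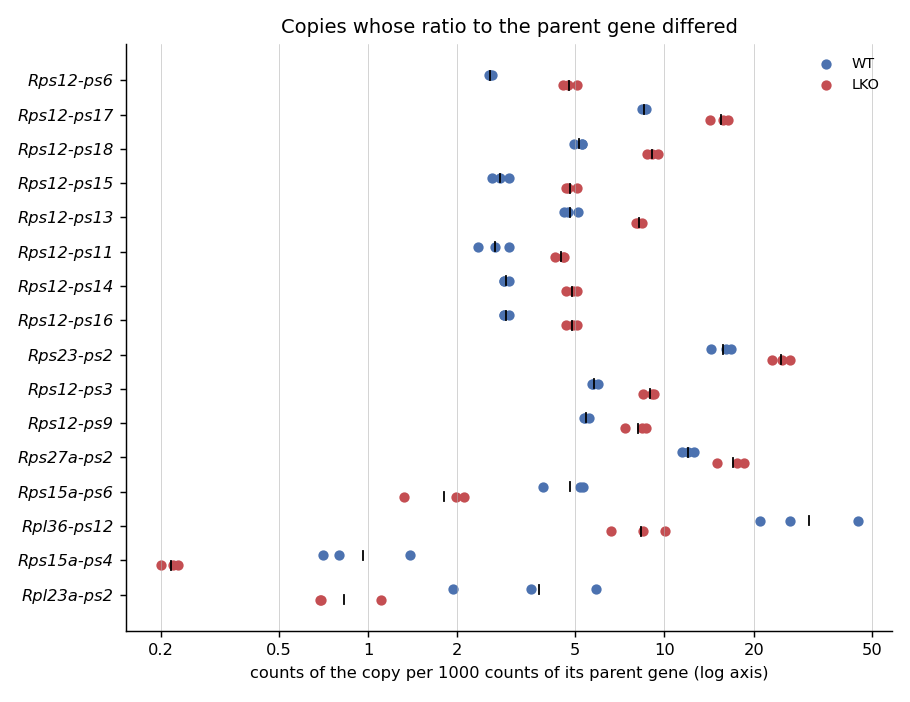
Counts of a copy per 1000 counts of its parent gene (log axis) for the 16 copies whose ratio differed between the genotypes, 1 point per mouse, with WT above LKO in each row and a black tick at each mean (n = 3). LKO mice lie to the right of WT mice in the upper 12 rows and to the left in the lower 4.

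Of the 4 copies that were lower relative to their parents, 3 lie in an intron on the strand of the host gene. *Rpl36-ps12* had 84, 148 and 89 counts in WT and 36, 29 and 48 in LKO mice, all LKO mice below all WT mice, while *Rpl36* rose by a log2 fold change of 1.08 (SE 0.15, edgeR adjusted p = 0.00104). Its ratio fell from 21.0, 44.8 and 26.5 to between 6.61 and 10.01 counts per 1000 counts of *Rpl36* (log2 difference −1.81, SE 0.29, limma adjusted p = 0.00719). Its host *Sumf1*, the gene of an enzyme that activates sulfatases, had a log2 fold change of −0.28 (SE 0.13, edgeR adjusted p = 0.134), and *Rpl36-ps12* itself −0.81 (SE 0.35, edgeR adjusted p = 0.0962).
*Rps15a-ps6* had 22, 27 and 26 counts in WT and 21, 26 and 18 in LKO mice, which overlap, and its ratio to the small subunit gene *Rps15a* fell by 1.43 on the log2 scale (SE 0.24, limma adjusted p = 0.00897). *Rps15a* rose by 1.97 (SE 0.21), the host *Nudcd3* had −0.34 (SE 0.16, edgeR adjusted p = 0.118) and the copy 0.54 (SE 0.39, edgeR adjusted p = 0.310). *Rpl23a-ps2* had 34, 48 and 17 counts in WT and 11, 11 and 18 in LKO mice, and its ratio fell by 2.06 (SE 0.42, limma adjusted p = 0.0174), from 3.55, 5.87 and 1.93 to 0.691, 0.686 and 1.11 counts per 1000 counts of *Rpl23a*. Its host *Rabep1*, which encodes an effector of endosome fusion, rose by 0.50 (SE 0.17, edgeR adjusted p = 0.0425), and *Rpl23a-ps2* had −0.59 (SE 0.47, edgeR adjusted p = 0.353). The fourth, *Rps15a-ps4*, lies in no protein-coding gene and rests on 4, 7 and 4 counts in WT and 2, 3 and 3 in LKO mice (log2 difference −1.98, SE 0.37, limma adjusted p = 0.0116).

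The position of the copies is given for the whole set as a description, with no test between positions. In all, 56 copies lie within a protein-coding gene, 52 of them in an intron, with 14 on the same and 39 on the opposite strand. Of those tested, the 13 on the same strand had a median log2 difference from the parent of −0.03 (from −2.06 to 0.57), with 0 called higher and 3 lower. The 29 on the opposite strand had a median of 0.19 (from −1.31 to 1.31), with 4 higher and 0 lower, and the 91 outside protein-coding genes a median of 0.21 (from −1.98 to 1.45), with 8 higher and 1 lower. The ranges of these positions overlap widely. Whether counting used the strand of the reads is not stated. Transcripts of a host gene that keep the intron contain the sequence of a copy on the same strand, and their part in these counts was not tested.

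Shared sequence also goes with the spread of the ratios. In the 10 tested copies with every window in the parent mRNA, the median size of the log2 difference was 0.13, and Pearson's r between the log2 fold changes of copy and parent was 0.986. With at least 50% but not all windows in the parent, the 34 copies had a median size of 0.19 and r = 0.817. With some but under 50%, 68 copies had 0.54 and r = 0.704, and with none, 18 copies had 0.58 and r = 0.473. The median levels of the 4 groups were 1.76, 2.14, 0.281 and 0.0458 CPM, lower in the last 2, so that sharing of reads and counting noise cannot be told apart here. Copies with at least 50% of their windows in the parent, 44 in all, held 76.7% to 79.0% (WT) and 79.6% to 81.6% (LKO) of the copy counts. The median log2 fold change differed little between the 4 groups, at 1.21, 1.02, 1.10 and 1.00, where that of their parents was 0.81, 0.92, 0.65 and 0.80.

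**Figure D5:**
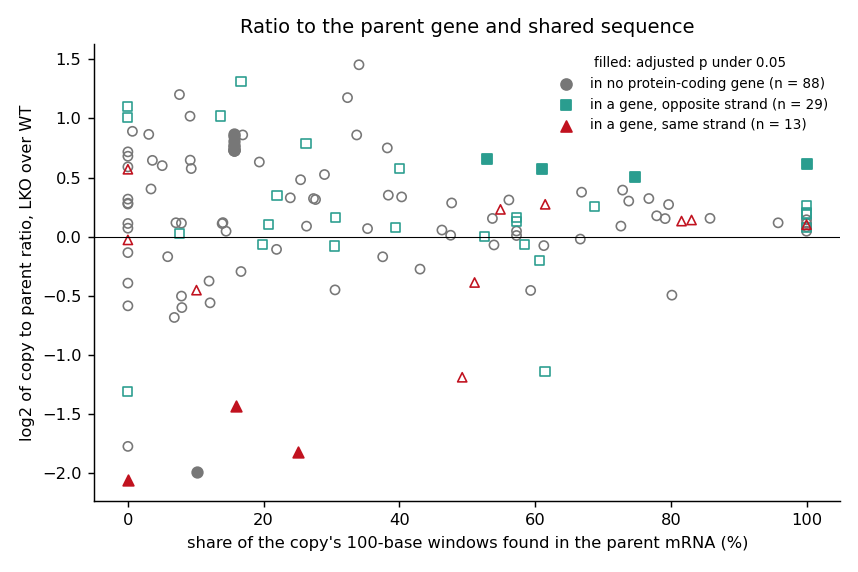
Log2 difference between LKO and WT mice in the ratio of copy to parent against the share of the copy's 100-base windows that occur unchanged in the parent mRNA, for the 130 tested copies with a sequence, with symbols by position relative to a protein-coding gene and filled symbols at an adjusted p under 0.05 (limma). The ratios run from 0.05 to 0.61 where every window is shared and from −2.06 to 1.10 where none is, and 3 of the 4 filled symbols below 0 are copies in introns on the strand of the host gene.

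Families differed in how many copies had counts and in how evenly the copies moved. *Rpl30*, *Rpl31* and *Rpl35a*, which encode large subunit proteins, had 5, 4 and 6 tested copies, of which 5, 4 and 5 were called higher (edgeR), with median log2 fold changes of 1.83, 2.07 and 1.75 beside 1.88, 2.08 and 1.67 in the parents. *Rpl35a-ps2*, *Rpl35a-ps3*, *Rpl35a-ps4* and *Rpl35a-ps6* each share all their windows with another gene, and their counts ran from 76 to 116 (WT) and from 169 to 223 (LKO). In *Rps18*, 3 of 3 tested copies were called higher, with a median of 2.31 beside 1.96 in the parent. *Rpl17* had 5 tested copies, 4 of them higher, with a median of 1.01 beside 0.92.
In some other families no copy was called. The 6 tested copies of *Rpl19*, the 5 of *Rpl7a*, the 4 of *Rps13* and the 4 of *Rps19* had median log2 fold changes of 0.64, 0.18, 0.48 and 0.45, where the parents had 0.30, −0.12, 0.22 and 0.75. Among these parents *Rps19*, the small subunit gene mutated in Diamond-Blackfan anaemia, was called higher (SE 0.14, edgeR adjusted p = 0.00383). Of 11 copies of *Rpl23a* 2 were tested, with log2 fold changes of 1.99 in *Rpl23a-ps3* and −0.59 in *Rpl23a-ps2*. The 4 copies of *Rps15a* ran from −0.18 to 2.94. *Rpl26*, *Rpl12*, *Rpl32*, *Rpl35*, *Rpl37*, *Rplp1*, *Rps15* and *Rps7* had no tested copy. The 20 copies of *Rps12* were the largest family, with 18 tested, 12 called higher and a median of 1.39.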

How the data were processed

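Liver RNA of 3 WT and 3 LKO mice was sequenced with 1 library per mouse, and groups follow the genotype in the labels. The methods name a total RNA kit with rRNA depletion, whereas the labels name a kit that selects mRNA. Per the submitters' processing notes, HISAT2 2.1.0, Bowtie2 2.3.4.1 and StringTie 2.1.3b were used with mm10. The authors deposited, for each gene and mouse, counts that StringTie derives from coverage, rounded to whole numbers and not normalized, and FPKM and TPM scaled per mouse. How reads with several matches were placed and whether strand was used are not given in the sources used here. FPKM served only to obtain the relative gene length as count over FPKM.

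A gene was tested if at most 1 of its 6 counts was 0, as for 18636 genes. Counts were scaled by TMM and tested for genotype with edgeR 4.0.16 (glmQLFit, glmQLFTest) in R 4.3.3, two-sided, with p-values adjusted over these genes by Benjamini-Hochberg and a threshold of 0.05. The methods of the paper use exactTest, which was run as an alternative. Log2 of the ratio of copy to parent, with 0.5 added to both counts, was tested with limma 3.58.1 with a variance trend on the mean count of the copy, and adjusted over 260 pairs. The tests were checked on simulated data with changes of 2 on the log2 scale. With 197 of 18435 genes shifted, edgeR recovered 178 and called 9 unchanged genes. With 26 of 260 ratios changed, limma recovered 23 and called 3 unchanged ones. Recovery of smaller changes, such as the called rises in the ratio, was not tested. In the check of limma, copy and parent were drawn independently with a biological coefficient of variation of 0.1. That of all genes in these data was 0.254. Neither check held reads shared between genes, and that of edgeR held no difference in library composition between the genotypes. The checks therefore do not give the error rates of the tests in these data. The number of mice, 3 per group, limits the exact permutation tests to p = 0.1, and p-values measure the spread between these mice.

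All 224 copies matched RefSeq (GRCm38.p6) by gene number, and 214 had a GENCODE gene of the same name at the same place. Sequences came from GENCODE transcripts and were aligned locally to the transcript of the parent. The copies, gene lists and tests were chosen with earlier results of these data known. The text names the 12 copies with the highest mean CPM, the 8 largest rises and 8 largest falls among called copies with a mean of at least 1 CPM, the 5 largest and 5 smallest differences among pairs called in the ratio test, their parents and host genes, and *Pak4*, and other genes named with values, such as *Rps2-ps6*, *Rps23-ps2*, *Rps12-ps3*, *Rps12-ps9*, *Rpl28-ps1*, *Rpl14-ps1*, *Rpl21-ps15*, *Rplp0-ps1* and those of the families, were chosen after their values were seen. The alternatives were exactTest, DESeq2 1.42.0, other scalings, filters and pseudocounts, a length correction (lowess, span 0.3), limma on log2(TPM + 1), the replicate number as a block, and leaving out each mouse.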

Additional observations from a re-analysis of the deposited data

How the results depend on the processing

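Against 66 copies called higher with TMM, 26 were called with total counts, 33 with the length correction, 21 with the length correction and the replicate block and 13 with limma on log2(TPM + 1). The same settings called 12, 5, 4 and 46 copies lower, where TMM called 0. Of all genes, these settings called 6.26%, 19.7%, 17.1% and 2.43% higher and 51.4%, 19.2%, 16.7% and 71.5% lower. *Rpl13-ps1* was the 1 copy called lower with filterByExpr, and *Rpl28-ps1* the 1 called lower without LKO mouse 3, so that leaving out 1 mouse gave 0 to 1. The 39 parents called higher became 26 with total counts and 15 with limma on TPM. The 2 parents called lower became 17 and 29. The 16 copies whose ratio differed became 9 with the replicate block, and the cause was not tested. The share of copies in LKO over WT was 1.09 in counts, 1.24 with 7SL and 7SK left out of the total and 0.738 as TPM.

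Direction also depended on the scaling for named genes. With total counts, the log2 fold changes were −0.33 in *Rpl10-ps3*, −0.32 in *Rpl10-ps6*, −0.30 in *Rpl10-ps1*, −0.31 in *Rpl10-ps5*, −0.16 in *Rpsa-ps10*, −0.45 in *Rpl10*, −0.27 in *Ide*, −0.58 in *Rpl19*, −0.68 in *Rpl3*, −0.082 in *Rpsa*, −0.22 in *Rps12* and −0.35 in *Rabep1*. With limma on TPM, they were −0.037 in *Rpl10a-ps1*, −0.97 in *Rpl10-ps3*, −0.94 in *Rpl10-ps6*, −0.92 in *Rpl19-ps11*, −0.38 in *Rps23-ps1*, −0.88 in *Rpl10-ps1* and in *Rpl10-ps5*, −1.01 in *Rpl3-ps1*, −0.69 in *Rpsa-ps10*, −0.027 in *Rps12-ps17*, −0.049 in *Rps12-ps18*, −0.06 in *Rps12-ps15*, −0.081 in *Rps12-ps13* and −0.40 in *Rps15a-ps6*. In parents and hosts they were −0.0030 in *Rpl15*, −0.14 in *Rpl10a*, −1.13 in *Rpl10*, −0.92 in *Ide*, −1.25 in *Rpl19*, −0.59 in *Rps23*, −1.39 in *Rpl3*, −0.76 in *Rpsa*, −0.90 in *Rps12*, −0.98 in *Rabep1* and −0.48 in *Rpl36*. With the length correction, that of *Rps12* was −0.011, and −0.0095 with the replicate block. Signs also turned in values called in neither setting: with total counts in *Rpl3-ps1* (−0.52), *Rpl19-ps11* (−0.29) and *Rps15a-ps6* (−0.35), with the length correction in *Rpl19* (−0.24), *Rpl10* (−0.066) and *Lca5* (0.047), and with the replicate block added in *Rpl19-ps11* (−7.8e-04).

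The deviations of same-numbered mice from their group means had r = 2.3e-04, −0.039 and −0.056 over genes. Differently numbered mice had r from −0.021 to 0.056. With 3 mice per group, such values cannot decide whether the numbers pair the mice, which the labels do not state. The replicate block alone gave 47 copies higher, 0 lower and 38 parents higher, where 16.8% of all genes were higher and 17.7% lower. Low counts limit most copies: 76 of 224 had at least 10 counts in every mouse, and 48 of these were called higher with that filter. Over all genes that pass the same filter, 24.0% were called higher and 24.8% lower.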
